A study of Homo sapiens with 6 samples.

Results

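Cells given the miR-4711-5p duplex were compared with cells given NC-1, a control duplex, and the difference was described over all genes, from 4 of the 6 libraries of the series. The cells were BxPC-3, an established human pancreatic cancer cell line. Each group had 2 libraries: NC-1 (negative control treatment), miR-4711-5p (miRNA treatment) and Parent (no treatment), and the cells of the series were taken 36 h after the start of treatment. Both duplexes were transfected, so transfection was shared by the groups compared, and the Parent libraries, which had none, are given beside the comparison as the untreated level. The methods list the strands of an NC duplex and also a purchased second control, and the labels do not say which of these NC-1 is. The strands listed for the NC duplex are shorter than those of miR-4711-5p, and effects of duplex length and of sequence cannot be told apart in this comparison. Nothing in the labels says that the 2 libraries of a group came from separate cultures, so p-values measure the spread between libraries, which may be technical. Of the 26255 gene symbols in each library, the 12040 with a mean of at least 1 FPKM (fragments scaled to the length of the transcript and to the size of the library) over the 6 libraries were tested.

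A miRNA is a short RNA that guides an Argonaute protein to messenger RNAs, mostly through pairing of its seed (bases 2 to 8 from the 5′ end) with the 3′ UTR, and lowers their stability or translation. A duplex added from outside can also be met by the sensors of double-stranded RNA in the cytosol and the endosome, which switch on interferons, the genes that interferons induce, and NF-kappaB. An expression profile after transfection can therefore hold mRNAs that pair with the seed, mRNAs further down the pathways of these, and the answer of the cell to foreign RNA. The mature miRNA is encoded on the minus strand of chromosome 1 at chr1:59733269-59733291 (GRCh38.p14, RefSeq). Its sequence is shown because the seed, in capitals, defines the sites named with the decreased genes.
hsa-miR-4711-5p: uGCAUCAGgccagaagacaugag

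The libraries resembled each other closely. Summed FPKM ranged from 493145 to 515688 over the 4 transfected libraries, and Pearson's r across genes was 0.9854 between the NC-1 libraries, 0.9904 between the miR-4711-5p libraries and 0.9669 to 0.9734 across the groups. FPKM do not keep read numbers. The steps between the lowest values put the depth of NC-1 2 at 1.14 times, and of the miR-4711-5p libraries at 1.43 and 1.61 times, that of NC-1 1, so the miR-4711-5p libraries were the more deeply sequenced, and the part of depth in the changes was not tested. The lineage matched the label: 9 of 12 ductal epithelial markers were tested and their summed level lay between 5339 and 5706 FPKM in the transfected libraries, while CFTR was at or near 0 in each library. SMAD4 and CDKN2A, which this line is known to have lost, were listed at 0 in all 6 libraries. A listed 0 can also be a failed estimate in these files: PSAP, a lysosomal gene that most cells use, was listed at 0 in all 4 transfected libraries, so zeros are reported as listed. Of 14 blood cell markers, 3 passed the filter, PTPRC was at no more than 0.0253 FPKM in any library, and TYROBP and SPI1 were listed at 0 throughout. The summed level of the 14 was 320.9 and 321.7 FPKM in NC-1 and 179.9 and 181.6 FPKM with miR-4711-5p, nearly all of it from LAPTM5 and CORO1A. Fibroblast and endothelial markers summed to at most 4.31 FPKM and acinar and islet markers to at most 7.5 FPKM in any library.

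Fitted with limma to log2(FPKM + 1) and adjusted after Benjamini and Hochberg to 0.05, the comparison called 4763 genes (39.6%), of which 2214 (18.4%) rose and 2549 (21.2%) fell with miR-4711-5p. Without 1 library the total was 3535 (NC-1 1), 3645 (NC-1 2), 2815 (miR-4711-5p 1) and 2991 (miR-4711-5p 2). These shares of all genes are the background for every count of members below. After a count of members, parentheses give the counts without 1 library wherever leaving it out moved either direction or the total by over 1.5 times. Log2 fold changes are miR-4711-5p minus NC-1 on this scale, given as the estimate ± its standard error (n = 2 libraries a group). Most changes were small: 391 genes (3.25%) rose and 585 (4.86%) fell by at least 1.5-fold, and 115 rose and 167 fell by at least 2-fold. The median log2 fold change over all genes was 0.004. NC-1 was itself not neutral, since against Parent 1456 genes (12.1%) were higher and 1823 (15.1%) lower in NC-1, 3279 in all, or 1591 without NC-1 1 and 1944 without NC-1 2. Both miR-4711-5p libraries lay above all 4 control libraries for 1659 of the genes that rose (13.8% of those tested) and below all 4 for 2214 of those that fell (18.4% of those tested). For the other 555 increases and 335 decreases at least 1 miR-4711-5p library did not pass the controls. With 2 libraries in each group the smallest p of an exact permutation test is 0.333, so that each p rests on the spread limma shares across genes. For comparison, both miR-4711-5p libraries lay outside the NC-1 range for 72.4% of all genes tested, above all 4 controls for 23.8% and below them for 26.3%, with no test.

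**Figure D1:**
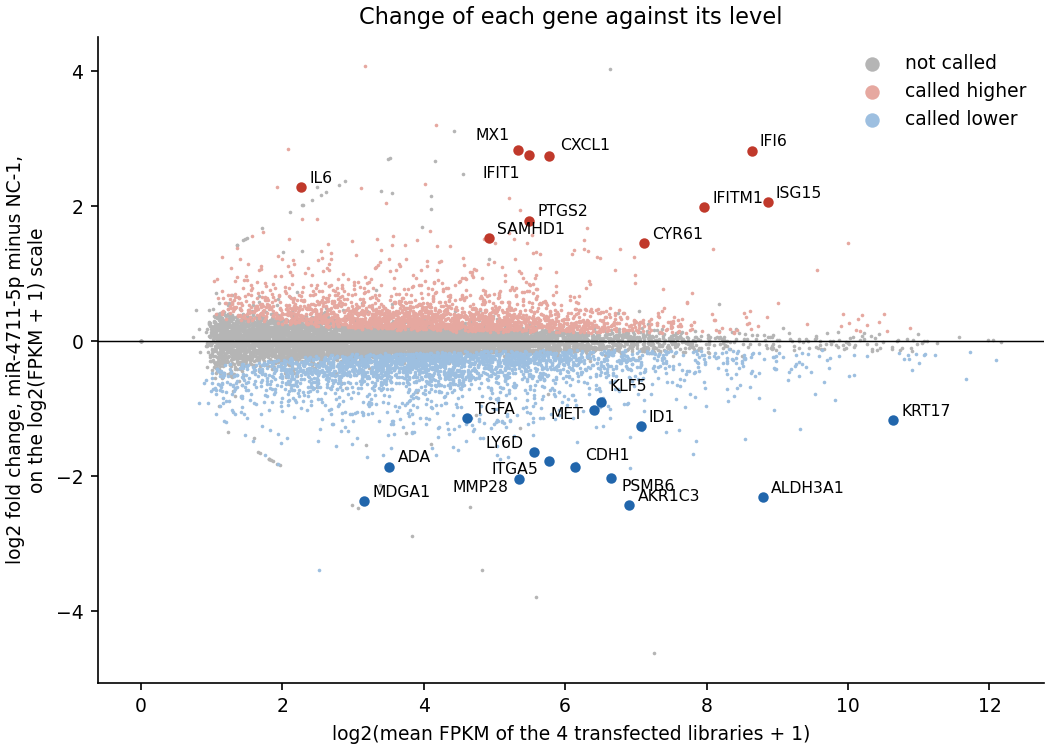
Each point is 1 of the 12040 genes, with its level in the 4 transfected libraries on the x axis and its log2 fold change, miR-4711-5p minus NC-1, on the y axis. Labelled increases reach 2.83 (MX1, IFI6), labelled decreases reach -2.42 (AKR1C3), and grey points far from 0 are genes whose libraries differed within a group.

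Among called genes with at least 10 FPKM in the higher group and both miR-4711-5p libraries beyond the 4 controls, the largest increases were genes of the interferon response and of inflammation, apart from 2 small nucleolar RNAs. By the naming rule the 15 largest were SNORA45A, SNORA68, MX1, IFI6, IFIT1, CXCL1, USP18, CXCL3, IFI44L, ISG15, TRIM22, IFITM1, CXCL8, PTGS2 and IFIT3. MX1, a dynamin-like GTPase that blocks viruses, was at 8.56 and 9.17 FPKM in NC-1 and 73.5 and 65.4 FPKM with miR-4711-5p (log2 fold change 2.83 ± 0.07, adjusted p = 3.18e-06). IFIT1, which binds foreign RNA by its 5′ end, was at 11 and 9.96 FPKM in NC-1 and 81.4 and 72.7 FPKM with miR-4711-5p (log2 fold change 2.77 ± 0.08, adjusted p = 3.18e-06). PTGS2, the inducible enzyme of prostaglandin synthesis, was at 17.97 and 20.3 FPKM in NC-1 and 68.9 and 68.02 FPKM with miR-4711-5p (log2 fold change 1.79 ± 0.08, adjusted p = 9.43e-06). SNORA45A was listed at 0 in both NC-1 libraries, at 9.09 and 10.4 FPKM in Parent and at 16.8 and 15.1 FPKM with miR-4711-5p. SNORA68 was listed at 0 in NC-1 1 and at 9.84 FPKM in NC-1 2. Libraries made from polyadenylated RNA measure such short RNAs poorly, and no fold is given for these.

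Under the same limits on level and overlap, the 15 largest decreases were spread over other functions: AKR1C3, MDGA1, ALDH3A1, MMP28, PSMB6, AKR1B10, CDH1, ADA, SPINK4, ITGA5, SERPINB3, GTF3A, CHST14, ERMP1 and SPDEF. MDGA1, a membrane-anchored adhesion protein, was at 13.7 and 14.2 FPKM in NC-1 and 1.79 and 2.04 FPKM with miR-4711-5p (log2 fold change -2.36 ± 0.07, adjusted p = 3.75e-06). ADA, which deaminates adenosine, was at 16.7 and 17.03 FPKM in NC-1 and 3.57 and 4.34 FPKM with miR-4711-5p (log2 fold change -1.85 ± 0.08, adjusted p = 1.02e-05). GTF3A, the transcription factor of 5S ribosomal RNA genes, was at 56.1 and 54.3 FPKM in NC-1 and 15.8 and 16.4 FPKM with miR-4711-5p (log2 fold change -1.72 ± 0.05, adjusted p = 3.18e-06). SPDEF, an ETS factor of secretory epithelium, was at 14.2 and 16.6 FPKM in NC-1 and 3.88 and 4.36 FPKM with miR-4711-5p (log2 fold change -1.68 ± 0.09, adjusted p = 1.65e-05). SERPINB3, a protease inhibitor of squamous epithelium whose reads can be shared with its near-identical neighbour SERPINB4, was at 48.5 and 53.8 FPKM in NC-1 and 13.98 and 15.2 FPKM with miR-4711-5p (log2 fold change -1.74 ± 0.07, adjusted p = 8.06e-06). SPINK4, a protease inhibitor of goblet cells, was at 104 and 117 FPKM in NC-1 and 29.5 and 32.02 FPKM with miR-4711-5p (log2 fold change -1.81 ± 0.09, adjusted p = 1.4e-05), but NC-1 had raised it from 36.8 and 43.01 FPKM in Parent, so that the distance from Parent was smaller.

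Of these 15 genes, 9 held a 7- or 8-base seed site in their longest 3′ UTR. MMP28, PSMB6, CDH1, GTF3A, CHST14 and ERMP1 held an 8mer site, CTGATGCA, and MDGA1, ADA and ITGA5 a 7mer site. The other 6, AKR1C3, ALDH3A1, AKR1B10, SPINK4, SERPINB3 and SPDEF, held none. Over all 10578 genes tested with a matched 3′ UTR, 18.5% held a site, against 30.4% of those called lower and 11.1% of those called higher. The windows below come from GENCODE transcripts on GRCh37, written on the transcript strand with the 8mer in capitals, and they show genes from different functions. A match is a description of these letters only. MMP28 is at chr17:34092949-34092978 on the minus strand, GTF3A at chr13:28009804-28009833 on the plus strand, ERMP1 at chr9:5786153-5786182 on the minus strand, GINS2 at chr16:85711710-85711739 on the minus strand, DNAJB4 at chr1:78482421-78482450 on the plus strand and UQCRC2 at chr16:21994493-21994522 on the plus strand.
MMP28: tgggagggagaCTGATGCAggcctaccagt
GTF3A: tattaaaattaCTGATGCAgaacatttgat
ERMP1: gtataatcttaCTGATGCActgggcctatc
GINS2: tagaaacacttCTGATGCAtgaaaaatgtg
DNAJB4: aaaagaatatcCTGATGCAtctgtttcacc
UQCRC2: taCTGATGCAcacattacaggagagagctg

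Genes of the sensors of double-stranded RNA rose. Of 14 sensors and adaptors tested, 11 rose and 1 fell (10 higher and 0 lower without miR-4711-5p 1), with a median log2 fold change of 0.98. DDX58, which encodes the cytosolic sensor RIG-I, was at 16.4 and 16.1 FPKM in NC-1 and 48.8 and 43.8 FPKM with miR-4711-5p (log2 fold change 1.46 ± 0.07, adjusted p = 1.35e-05). IFIH1, which encodes the sensor MDA5, was at 10.1 and 10.6 FPKM in NC-1 and 29.9 and 28.3 FPKM with miR-4711-5p (log2 fold change 1.41 ± 0.06, adjusted p = 7.26e-06). OAS1, a synthetase of the RNase L activator, was at 37.7 and 40.8 FPKM in NC-1 and 118 and 109 FPKM with miR-4711-5p (log2 fold change 1.5 ± 0.06, adjusted p = 7.26e-06), and OAS3 (1.33) and OAS2 (1.25) rose beside it. MAVS, the mitochondrial adaptor of RIG-I and MDA5, fell (log2 fold change -0.26, adjusted p = 0.00649) and was named after its value was seen. The summed level of the list was 338 and 348.5 FPKM in NC-1 and 719.9 and 676.3 FPKM with miR-4711-5p, so that the groups did not overlap. Against Parent, NC-1 had raised 4 of the 14 and lowered none.

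Interferon messages themselves had values near 0 or were listed at 0, which need not mean absence. IFNB1 was listed at 0 in all 4 control libraries and at 0.613 and 0.234 FPKM with miR-4711-5p, and IFNL1 reached at most 0.609 FPKM in any library. IFNA1, IFNE, IFNK and IFNG were listed at 0 in all 6 libraries, and 17 of the 27 genes of ligands, receptors and JAK-STAT signalling passed the filter. IRF9, a transducer of the type I and III interferon receptors, was at 36.5 and 38.5 FPKM in NC-1 and 79.6 and 75.3 FPKM with miR-4711-5p (log2 fold change 1.03 ± 0.05, adjusted p = 1.64e-05), and STAT2, its partner, at 18.3 and 18.4 FPKM in NC-1 and 38.2 and 34.4 FPKM with miR-4711-5p (log2 fold change 0.94 ± 0.06, adjusted p = 4.26e-05). SOCS3, a feedback inhibitor of JAK kinases, was at 3.60 and 4.95 FPKM in NC-1 and 8.71 and 9.18 FPKM with miR-4711-5p (log2 fold change 0.93 ± 0.15, adjusted p = 0.00284). The receptor chain IFNAR1, named after its value was seen, fell (log2 fold change -0.45, adjusted p = 0.000989). IRF3, the factor that sensors activate by phosphorylation, was at 85.96 and 88.2 FPKM in NC-1 and 84.4 and 86.9 FPKM with miR-4711-5p (log2 fold change -0.03 ± 0.04, adjusted p = 0.693). In all 5 members rose and 4 fell (4 higher and 2 lower without NC-1 1 or miR-4711-5p 1 or miR-4711-5p 2), and NC-1 had raised 8 of the 17 against Parent and lowered none.

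Of 45 interferon-stimulated effectors, 43 rose and none fell, with a median log2 fold change of 1.12 and a range of -0.12 to 2.83. IFI6, a mitochondrial protein, was at 99.8 and 94.3 FPKM in NC-1 and 754 and 639.6 FPKM with miR-4711-5p (log2 fold change 2.83 ± 0.10, adjusted p = 5.74e-06). ISG15, a ubiquitin-like modifier, was at 180.1 and 177 FPKM in NC-1 and 793 and 708 FPKM with miR-4711-5p (log2 fold change 2.06 ± 0.07, adjusted p = 3.75e-06). USP18, the protease that removes ISG15 and restrains the receptor, was at 4.19 and 4.51 FPKM in NC-1 and 28.6 and 23.6 FPKM with miR-4711-5p (log2 fold change 2.33 ± 0.12, adjusted p = 1.69e-05). IFITM1, a membrane protein that blocks viral entry and whose reads may be shared with related copies, was at 93.1 and 107 FPKM in NC-1 and 408 and 388 FPKM with miR-4711-5p (log2 fold change 1.99 ± 0.08, adjusted p = 7.78e-06). IFI27, the highest of the list in NC-1, was at 547 and 535 FPKM in NC-1 and 1547 and 1445 FPKM with miR-4711-5p (log2 fold change 1.47 ± 0.06, adjusted p = 9e-06). NC-1 had raised 25 of the 45 against Parent, with a median of 0.23, and the members' sum was 2376 and 2255 FPKM in Parent, 2645 and 2726 FPKM in NC-1 and 7080 and 6586 FPKM with miR-4711-5p. In bulk RNA a higher level in each cell and a larger share of responding cells cannot be told apart.

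**Figure D2:**
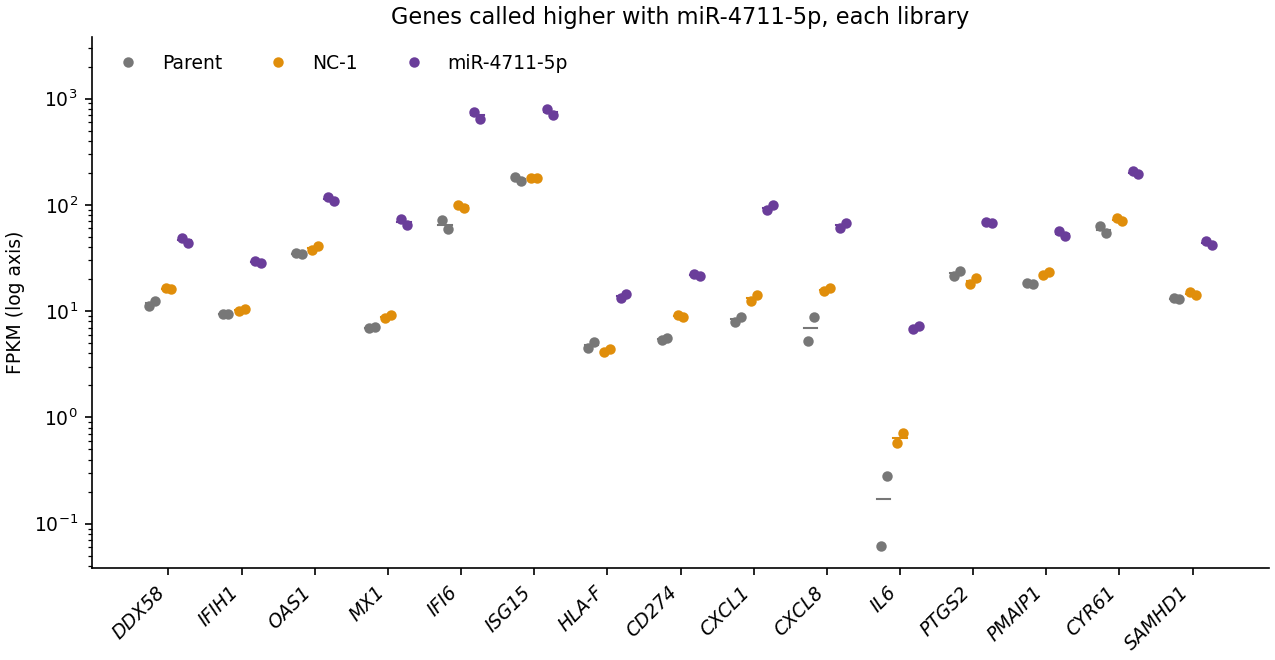
FPKM of 15 genes that rose, on a log axis, with 1 point per library and a bar at the mean of the 2 libraries of Parent, NC-1 and miR-4711-5p. For each gene both miR-4711-5p points lie above the 4 control points, and for IL6 the controls are below 1 FPKM.

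Promoters of the raised genes held the letters of the interferon-stimulated response element (ISRE) more often than promoters overall. In RefSeq promoters (GRCh38.p14, 250 bases before to 50 after the start), a GAAA followed after any 2 bases by another GAAA, read on both strands, was found in 3.65% of all 27305 promoters and in 2.8% of the 8975 genes tested that matched the table. The share was 5.37% of genes called higher, 2.3% of genes called lower, and 33.7% (28 of 83) of those that rose at least 2-fold. It was 65.8% (25 of 38) of the interferon-stimulated effectors. It was also 52.9% (9 of 17) of the genes of MHC class I presentation, a list that did not rise as a whole (6 of 21 higher and 5 lower). The windows below show the match in capitals on the gene's strand, at chr21:41420559-41420588 (plus) for MX1, chr1:27672288-27672317 (minus) for IFI6, chr11:314024-314053 (plus) for IFITM1, chr1:1013380-1013409 (plus) for ISG15 and chr2:162318686-162318715 (minus) for IFIH1. They are examples, 1 match on the gene's strand for each of 5 genes, and the likeness of the capitals follows from the search.
MX1: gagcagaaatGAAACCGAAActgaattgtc
IFI6: ggagagagggGAAAATGAAActgcagagtg
IFITM1: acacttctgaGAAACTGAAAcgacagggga
ISG15: tcgggaaaggGAAACCGAAActgaagccaa
IFIH1: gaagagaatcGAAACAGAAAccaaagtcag

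Chemokines and cytokines divided. All 11 chemokines that passed the filter of 15 listed rose, with a median log2 fold change of 1.52. The filter includes the miR-4711-5p libraries, so it can admit genes through the group where they are high. With no filter on low values, 12 of 14 rose and none fell, with a median of 0.967. Chemokines that attract neutrophils led: CXCL1 was at 12.3 and 14.2 FPKM in NC-1 and 89.3 and 99.4 FPKM with miR-4711-5p (log2 fold change 2.74 ± 0.09, adjusted p = 3.75e-06), CXCL3 at 2.10 and 1.84 FPKM in NC-1 and 13.1 and 13.7 FPKM with miR-4711-5p (log2 fold change 2.28 ± 0.08, adjusted p = 5.74e-06) and CXCL8 at 15.3 and 16.4 FPKM in NC-1 and 60.3 and 67.9 FPKM with miR-4711-5p (log2 fold change 1.95 ± 0.18, adjusted p = 0.00026). CXCL10, which attracts T cells, was at 22.3 and 21.9 FPKM in NC-1 and 74 and 62.2 FPKM with miR-4711-5p (log2 fold change 1.58 ± 0.08, adjusted p = 1.69e-05). Among 14 cytokines 6 rose and 4 fell (6 higher and 2 lower without miR-4711-5p 2). IL6 was at 0.571 and 0.714 FPKM in NC-1 and 6.83 and 7.20 FPKM with miR-4711-5p, and since it passed the filter only through the miR-4711-5p libraries, its call is no support. CSF2, which encodes GM-CSF, was at 1.65 and 1.32 FPKM in NC-1 and 8.72 and 6.75 FPKM with miR-4711-5p (log2 fold change 1.81 ± 0.18, adjusted p = 0.000317), and TNFSF10, which encodes TRAIL, at 8.91 and 8.94 FPKM in NC-1 and 24.7 and 26.02 FPKM with miR-4711-5p (log2 fold change 1.41 ± 0.05, adjusted p = 5.8e-06). NC-1 had lowered TNFSF10 from 16.1 and 15.9 FPKM in Parent. IL33, an alarmin of epithelial nuclei, fell from 15.3 and 15.5 FPKM in NC-1 to 5.62 and 6.90 FPKM with miR-4711-5p (log2 fold change -1.18, adjusted p = 8.45e-05), after NC-1 had raised it from 6.51 and 6.43 FPKM in Parent. IL1RN, the antagonist of interleukin 1, was named after its value was seen and was at 58.5 and 58.2 FPKM in NC-1 and 27.9 and 27.4 FPKM with miR-4711-5p (log2 fold change -1.05 ± 0.05, adjusted p = 1.02e-05), and IL1B, the highest of the list, fell by less (-0.24). NC-1 had also raised 6 of the 11 chemokines against Parent and lowered none. Of the 14 cytokines it had raised 8 and lowered 2, with a median of 0.30, against 0.18 for miR-4711-5p minus NC-1.

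Several feedback genes of NF-kappaB rose. Of 21 genes of its subunits and feedback, 12 rose and 1 fell (7 higher and 1 lower without miR-4711-5p 1), with a median log2 fold change of 0.20. With a minimum of 1.5-fold, 4 increases were still called. NC-1 against Parent had moved the list by a similar amount, with 11 of the 21 higher, 1 lower and a median of 0.22. NFKBIZ, an inducible nuclear cofactor, was at 15.97 and 17.3 FPKM in NC-1 and 32.9 and 33.3 FPKM with miR-4711-5p (log2 fold change 0.95 ± 0.08, adjusted p = 0.000197). TNFAIP3, which encodes the inhibitor A20, was at 31.2 and 31.1 FPKM in NC-1 and 53.8 and 50.7 FPKM with miR-4711-5p (log2 fold change 0.73 ± 0.05, adjusted p = 5.42e-05), with TRAF1 (0.78) and ZC3H12A (0.60) beside it. TNIP1, a partner of A20, fell (log2 fold change -0.33, adjusted p = 0.00259). The exact NF-kappaB letters GGAATTTCC were searched on both strands, and sites with other letters were not counted. The string was found in 0.472% of all promoters, 0.49% of genes tested, 7 of 9 chemokines (77.8%) and 5 of 19 genes of this list (26.3%). The share was 0.876% of genes called higher and 0.157% of genes called lower. These shares depend on the choice of string and do not count all NF-kappaB sites. The windows of the neutrophil chemokines are at chr4:73869305-73869334 (plus) for CXCL1, chr4:74038748-74038777 (minus) for CXCL3 and chr4:73740468-73740497 (plus) for CXCL8. CXCL1, CXCL2 and CXCL3 are near-identical there, so the 7 chemokine matches are not all separate, and the likeness of the capitals follows from the search.
CXCL1: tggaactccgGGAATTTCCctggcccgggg
CXCL3: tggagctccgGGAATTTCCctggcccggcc
CXCL8: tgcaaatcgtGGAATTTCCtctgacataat

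**Figure D3:**
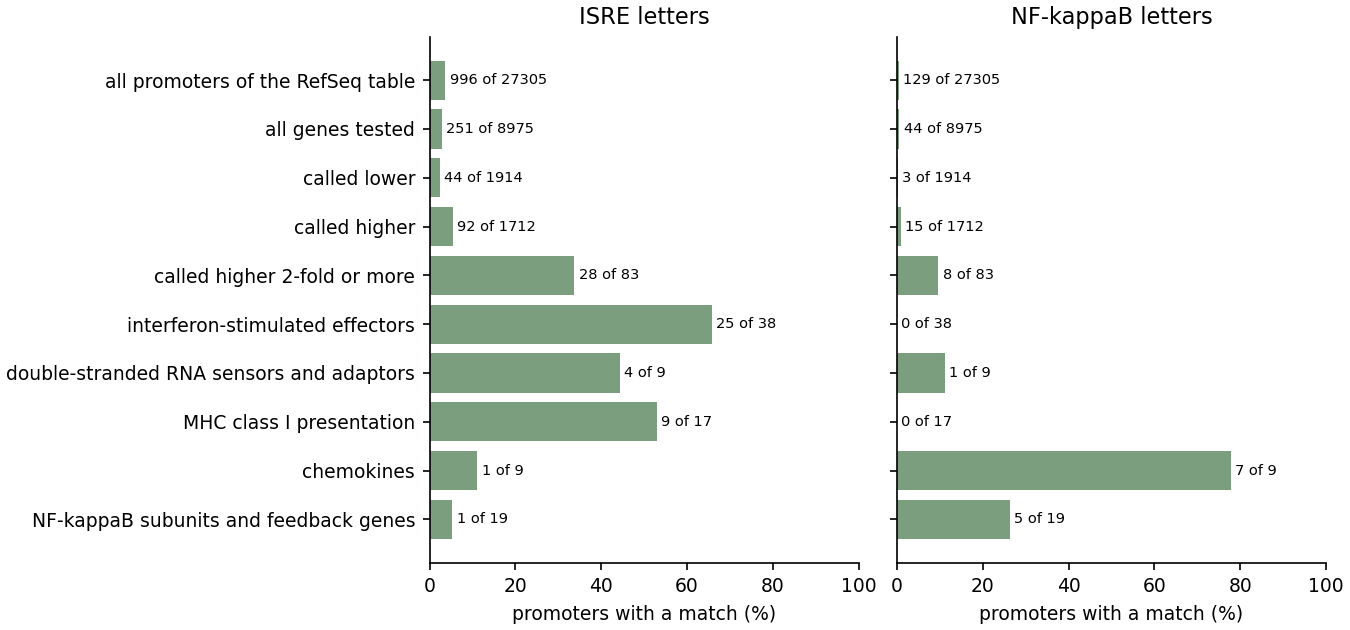
Bars give the percentage of promoters that hold the ISRE letters (left) or the exact NF-kappaB letters GGAATTTCC (right) in each set of genes, with the number of promoters beside each bar. The ISRE share reaches 65.8% in the interferon-stimulated effectors and the NF-kappaB share 77.8% in the chemokines, against 2.8% and 0.49% of all genes tested.

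Antigen presentation and the proteasome showed mixed changes. Among 21 genes of MHC class I presentation 6 rose and 5 fell (5 higher and 3 lower without miR-4711-5p 1 or miR-4711-5p 2), and the median log2 fold change was 0.10. NC-1 had raised 8 of the 21 against Parent and lowered none, with a median of 0.11. HLA-F, a non-classical class I gene whose reads may be shared with other HLA genes, was at 4.09 and 4.41 FPKM in NC-1 and 13.4 and 14.5 FPKM with miR-4711-5p (log2 fold change 1.51 ± 0.08, adjusted p = 2.42e-05). TAP1, the peptide transporter, was at 26.6 and 26.4 FPKM in NC-1 and 48.2 and 46.2 FPKM with miR-4711-5p (log2 fold change 0.81 ± 0.07, adjusted p = 0.000164), and NLRC5, the transactivator of class I genes, at 2.36 and 2.65 FPKM in NC-1 and 4.46 and 4.25 FPKM with miR-4711-5p (log2 fold change 0.61 ± 0.09, adjusted p = 0.00225). TAPBPL, an editor of bound peptides, fell (log2 fold change -0.57, adjusted p = 0.000327), and B2M, the light chain of class I, was at 1840 and 1714 FPKM in NC-1 and 1631 and 1619 FPKM with miR-4711-5p (log2 fold change -0.13 ± 0.05, adjusted p = 0.0719). Of 32 proteasome subunits 15 rose and 2 fell (8 higher and 2 lower without miR-4711-5p 1, 4 higher and 2 lower without miR-4711-5p 2). The increases were small, with ADRM1 (0.50) and PSMC4 (0.45) the largest. PSMB6, the catalytic subunit beta 1, fell from 154 and 165 FPKM to 36.8 and 40.2 FPKM (log2 fold change -2.02, adjusted p = 3.75e-06). PSMA4, the subunit alpha 3, fell from 194 and 180.2 FPKM to 106 and 110.5 FPKM (log2 fold change -0.78, adjusted p = 7.6e-05). Both held an 8mer seed site. With a minimum of 1.5-fold, these 2 were the subunits still called and no increase was.

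Ligands that immune cells read on tumour cells moved both ways, 5 of 13 higher and 3 lower, with a median log2 fold change of 0.16. NC-1 had raised 7 of the 13 against Parent and lowered none, with a median of 0.29. CD274, which encodes PD-L1, was at 9.29 and 8.75 FPKM in NC-1 and 22.3 and 21.6 FPKM with miR-4711-5p (log2 fold change 1.20 ± 0.06, adjusted p = 1.4e-05), from 5.37 and 5.55 FPKM in Parent. LGALS9, which encodes galectin-9, was at 6.85 and 6.10 FPKM in NC-1 and 14.6 and 14.3 FPKM with miR-4711-5p (log2 fold change 1.05 ± 0.09, adjusted p = 0.000183). CD276, which encodes B7-H3, was at 38.8 and 40.1 FPKM in NC-1 and 13.8 and 14.2 FPKM with miR-4711-5p (log2 fold change -1.43 ± 0.05, adjusted p = 5.8e-06). RAET1E, a ligand of the receptor NKG2D, fell (log2 fold change -0.77, adjusted p = 0.000706), while PVR, a ligand of TIGIT, rose (log2 fold change 0.46, adjusted p = 0.000433). Of 12 complement and acute phase genes 3 rose and 5 fell. The liver-type acute phase gene SAA1 (0.89) and the complement factor CFB (1.03) rose, and C3 (-0.72), the central complement protein, and the complement shield CD59 (-0.53) fell, with log2 fold changes in parentheses here and below.

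Genes of cell death changed in part. Among 14 members of the BCL2 family 5 rose and 4 fell (5 higher and 1 lower without NC-1 2 or miR-4711-5p 1, 4 higher and 1 lower without miR-4711-5p 2). PMAIP1, which encodes the BH3-only protein NOXA, was at 21.7 and 23.4 FPKM in NC-1 and 56.8 and 50.5 FPKM with miR-4711-5p (log2 fold change 1.21 ± 0.07, adjusted p = 2.83e-05). The BH3-only genes BMF (0.70) and BBC3 (0.62) also rose, BIK, another of these, fell (-0.45), and MCL1, the survival protein that NOXA binds, was at 113 and 104 FPKM in NC-1 and 119 and 109 FPKM with miR-4711-5p (log2 fold change 0.07 ± 0.06, adjusted p = 0.394). Of 20 genes of death receptors, caspases and necroptosis 3 rose and 4 fell (2 higher and 2 lower without miR-4711-5p 1), a share of 35% that was under the background of 39.6%. The receptor FAS (0.54) rose and RIPK3, a kinase of necroptosis, fell (-0.50), as did CASP2 (-0.46). Of 20 p53 targets 5 rose and 9 fell (3 higher and 9 lower without NC-1 1 or miR-4711-5p 1 or miR-4711-5p 2), with a median log2 fold change of -0.23, after NC-1 had raised 8 of the 20 against Parent and lowered 2. GDF15, a stress cytokine, was at 37.9 and 38.6 FPKM in NC-1 and 96.9 and 102 FPKM with miR-4711-5p (log2 fold change 1.36 ± 0.05, adjusted p = 5.15e-06). BTG2, an antiproliferative gene, was at 12.3 and 11.99 FPKM in NC-1 and 5.72 and 6.17 FPKM with miR-4711-5p (log2 fold change -0.92 ± 0.07, adjusted p = 7.8e-05). MDM2, the ligase of p53, was at 13.8 and 12.2 FPKM in NC-1 and 8.89 and 7.68 FPKM with miR-4711-5p (log2 fold change -0.59 ± 0.09, adjusted p = 0.00205). CDKN1A, which encodes p21, was at 129.5 and 135 FPKM in NC-1 and 124 and 123 FPKM with miR-4711-5p (log2 fold change -0.10 ± 0.04, adjusted p = 0.108).

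Cell cycle genes differed little from NC-1, and many were already lower in NC-1 than in Parent. Of 46 genes of replication origins and forks, 9 rose and 9 fell (5 higher and 6 lower without NC-1 1, 4 higher and 6 lower without NC-1 2, 4 higher and 3 lower without miR-4711-5p 1, 2 higher and 5 lower without miR-4711-5p 2) with miR-4711-5p, with a median log2 fold change of 0.01, while NC-1 against Parent lowered 36 of the 46, with a median of -0.33. Both comparisons use the NC-1 libraries. GINS2, a subunit of the replicative helicase, stood apart at 19.8 and 20.7 FPKM in NC-1 and 8.28 and 9.01 FPKM with miR-4711-5p (log2 fold change -1.14 ± 0.06, adjusted p = 1.83e-05), and POLD2 (-0.36) was the next decrease. Of 42 mitosis genes 4 rose and 10 fell (3 higher and 4 lower without miR-4711-5p 1, 3 higher and 5 lower without miR-4711-5p 2), with a median of -0.09, against 27 lower in NC-1 than in Parent. The shares called, 39.1% of the replication genes and 33.3% of the mitosis genes, were under the background of 39.6%. CDC25B, the phosphatase that starts mitosis, was at 79.8 and 78.96 FPKM in NC-1 and 43.01 and 41.7 FPKM with miR-4711-5p (log2 fold change -0.89 ± 0.04, adjusted p = 1.32e-05). KIF20A, a kinesin of cytokinesis, was at 26.6 and 27.7 FPKM in NC-1 and 15.9 and 17 FPKM with miR-4711-5p (log2 fold change -0.69 ± 0.06, adjusted p = 0.000123), with MYBL2 (-0.51) below it. PRC1, a bundler of the spindle midzone, was at 30.1 and 30.97 FPKM in NC-1 and 50.8 and 51.4 FPKM with miR-4711-5p (log2 fold change 0.72 ± 0.04, adjusted p = 3.15e-05), but it was at 70.6 and 69.6 FPKM in Parent, so that the miR-4711-5p level lay between the controls. UBE2C, a ubiquitin enzyme of the anaphase-promoting complex, behaved likewise, at 242 and 232 FPKM in Parent, 166 and 179 FPKM in NC-1 and 213 and 215 FPKM with miR-4711-5p. No mitosis gene lay above all 4 controls in both miR-4711-5p libraries, and 21 of the 42 lay below. Over all genes tested 23.8% lay above and 26.3% below.

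Of 15 G1 cyclins, CDKs, inhibitors and pocket proteins, 4 fell and none rose, a share of 26.7% that was under the background of 39.6%. The cyclin CCND1 (-0.40), its partner CDK4 (-0.22), the inhibitor CDKN2C (-0.45) and the pocket protein RBL2 (-0.21) were those that fell. CDK4 reads can be shared with a pseudogene. CDK2 was at 42.7 and 45 FPKM in NC-1 and 45.3 and 46.1 FPKM with miR-4711-5p (log2 fold change 0.06 ± 0.05, adjusted p = 0.343) and CDK6 at 36.9 and 35.1 FPKM in NC-1 and 39.5 and 34.5 FPKM with miR-4711-5p (log2 fold change 0.04 ± 0.07, adjusted p = 0.692). Among 10 E2F and DP factors 3 rose and 3 fell (1 higher and 2 lower without miR-4711-5p 1 or miR-4711-5p 2). TFDP1, the dimer partner of E2F proteins, was at 38.7 and 44.02 FPKM in NC-1 and 20.6 and 19.9 FPKM with miR-4711-5p (log2 fold change -0.99 ± 0.07, adjusted p = 8.14e-05), with reads that can be shared with pseudogenes. E2F3 was at 8.86 and 8.53 FPKM in NC-1 and 13.1 and 13.7 FPKM with miR-4711-5p (log2 fold change 0.57 ± 0.06, adjusted p = 0.000345), while the repressors E2F7 (-0.45) and E2F8 (-0.27) fell. Of 26 genes of nucleotide metabolism 3 rose and 10 fell (3 higher and 4 lower without NC-1 1 or miR-4711-5p 1, 3 higher and 6 lower without NC-1 2). Besides ADA, the salvage kinase DCK (-0.40) fell, and SAMHD1, which breaks down deoxynucleotides and limits viruses, was at 15.1 and 14.1 FPKM in NC-1 and 46.2 and 42.2 FPKM with miR-4711-5p (log2 fold change 1.53 ± 0.06, adjusted p = 8.48e-06). Of 28 genes of homologous recombination, Fanconi and mismatch repair 2 rose and 4 fell (0 higher and 3 lower without NC-1 1, 1 higher and 2 lower without NC-1 2, 0 higher and 1 lower without miR-4711-5p 1 or miR-4711-5p 2), and of 9 replication-dependent histone genes 1 rose (2 higher and 0 lower without NC-1 2, 1 higher and 1 lower without miR-4711-5p 1), shares of 21.4% and 11.1% that were under the background.

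Genes of adherens junctions and desmosomes fell. Of 13 adherens junction genes 8 fell and 1 rose, and of 10 desmosome genes 8 fell and none rose, with medians of -0.28 and -0.40. CDH1, which encodes E-cadherin, was at 109 and 109.6 FPKM in NC-1 and 28.3 and 30.9 FPKM with miR-4711-5p (log2 fold change -1.85 ± 0.05, adjusted p = 3.18e-06). PVRL1, which encodes nectin-1, was at 184 and 187 FPKM in NC-1 and 90.5 and 89.6 FPKM with miR-4711-5p (log2 fold change -1.03 ± 0.05, adjusted p = 1.04e-05), and the catenin CTNND1 (-0.60) and the scaffold MLLT4 (-0.50) fell with it, while CTNNB1, which encodes beta-catenin, was at 175 and 173 FPKM in NC-1 and 183 and 186 FPKM with miR-4711-5p (log2 fold change 0.08 ± 0.04, adjusted p = 0.117). PERP, a tetraspan protein of desmosomes, was at 179 and 178 FPKM in NC-1 and 96.9 and 98.5 FPKM with miR-4711-5p (log2 fold change -0.86 ± 0.04, adjusted p = 1.02e-05), with DSC3 (-0.60), PKP1 (-0.53) and DSG3 (-0.46) also lower. Of 19 tight junction genes 5 were higher and 1 was lower (3 higher and 1 lower without NC-1 1 or NC-1 2, 2 higher and 1 lower without miR-4711-5p 1 or miR-4711-5p 2). This share of 31.6% was under the background of 39.6%, and NC-1 had raised 8 of the 19 against Parent and lowered 2. The claudin CLDN4 (0.45), the adaptor CGN (0.53) and the polarity gene CRB3 (0.40) rose, and F11R (-0.42), which encodes JAM-A, fell. Of 12 mesenchymal genes that passed the filter of 21 listed, 3 rose and 5 fell, with a median log2 fold change of -0.23 and a range of -0.59 to 0.79. N-cadherin, CDH2, was at 1.12 and 0.882 FPKM in NC-1 and 2.23 and 2.70 FPKM with miR-4711-5p (log2 fold change 0.79 ± 0.12, adjusted p = 0.0025), fibronectin, FN1, at 3.28 and 3.67 FPKM in NC-1 and 6.26 and 5.38 FPKM with miR-4711-5p (log2 fold change 0.61 ± 0.10, adjusted p = 0.0032) and vimentin, VIM, at 18.2 and 13.8 FPKM in NC-1 and 23.2 and 22.97 FPKM with miR-4711-5p (log2 fold change 0.52 ± 0.11, adjusted p = 0.00936), and the abundant members CAV1 (-0.33) and TGFBI (-0.47) fell. CDH2, FN1 and VIM were all 3 increases, whereas the 5 decreases are named only in part and reached -0.59. TWIST1 and PRRX1 were listed at 0 in all 6 libraries.

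**Figure D4:**
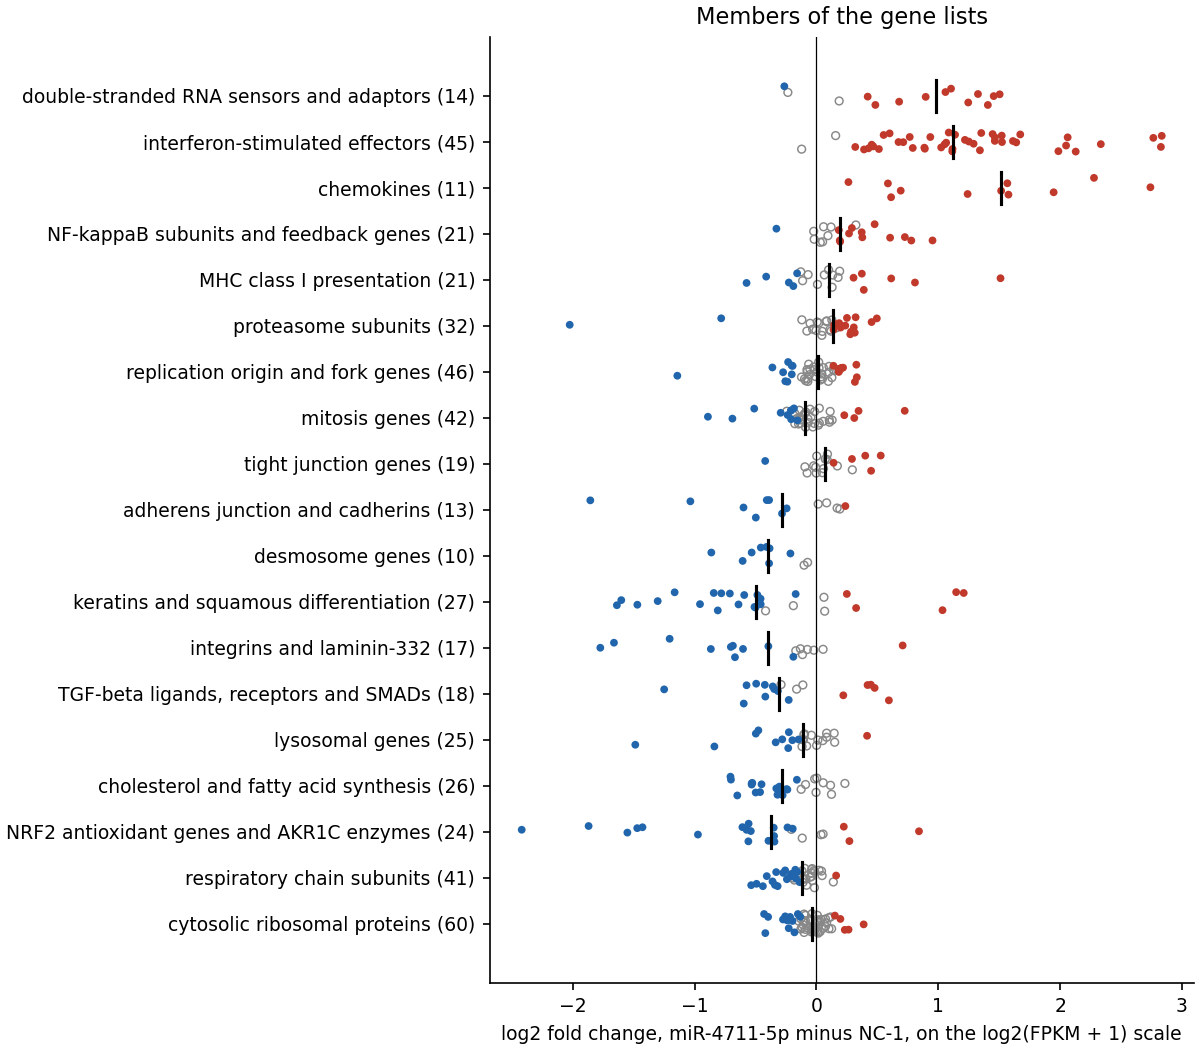
Each point is 1 member of a gene list, placed by its log2 fold change, miR-4711-5p minus NC-1. Filled red points were called higher, filled blue points called lower and open points not called, the black bar is the median, and the number of members tested stands in parentheses. The interferon-stimulated effectors, sensors and chemokines lie mostly right of 0 and the desmosome, keratin and NRF2 lists mostly left.

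Squamous and glandular differentiation genes fell. Of 27 keratins and squamous genes 18 fell and 5 rose, with a median log2 fold change of -0.50. NC-1 against Parent had already lowered 10 of the 27 and raised 6, with a median of -0.14. LY6D, a surface protein of squamous cells, was at 63.9 and 76.3 FPKM in NC-1 and 20.5 and 23.2 FPKM with miR-4711-5p (log2 fold change -1.64 ± 0.09, adjusted p = 2.38e-05). KRT4 was at 32.3 and 32.99 FPKM in NC-1 and 8.79 and 11.6 FPKM with miR-4711-5p (log2 fold change -1.60 ± 0.11, adjusted p = 5.56e-05) and KRT13, its partner in stratified mucosa, at 889.6 and 924 FPKM in NC-1 and 339.7 and 397 FPKM with miR-4711-5p (log2 fold change -1.30 ± 0.07, adjusted p = 2.53e-05). KRT17, the highest keratin in NC-1, was at 2347 and 2074 FPKM in NC-1 and 1006 and 963 FPKM with miR-4711-5p (log2 fold change -1.16 ± 0.07, adjusted p = 3.1e-05). IVL, which encodes involucrin, was at 8.49 and 6.17 FPKM in NC-1 and 2.14 and 1.83 FPKM with miR-4711-5p (log2 fold change -1.47 ± 0.14, adjusted p = 0.000256), after NC-1 had raised it from 3.76 and 3.42 FPKM. Keratins of simple epithelium differed among themselves: KRT8 (0.25) and KRT18 (0.33) rose, and KRT7 (-0.17) and KRT19 (-0.50) fell. Keratin reads can be shared among related genes and pseudogenes. Of 9 mucin and CEACAM genes 6 fell and 1 rose (0 higher and 5 lower without miR-4711-5p 2). MUC2, a gel-forming mucin, was at 4.95 and 4.74 FPKM in NC-1 and 1.01 and 1.11 FPKM with miR-4711-5p (log2 fold change -1.51 ± 0.09, adjusted p = 3.49e-05), CEACAM5, which encodes carcinoembryonic antigen, at 82.9 and 105 FPKM in NC-1 and 38.9 and 45.4 FPKM with miR-4711-5p (log2 fold change -1.13 ± 0.11, adjusted p = 0.000333) and CEACAM6 at 386 and 432 FPKM in NC-1 and 210.4 and 232 FPKM with miR-4711-5p (log2 fold change -0.88 ± 0.07, adjusted p = 0.000164). MUC13, the member that rose, was at 0.659 and 0.944 FPKM in NC-1 and 1.69 and 2.09 FPKM with miR-4711-5p, and it too passed the filter only through these libraries.

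Among 9 stem cell markers of pancreatic cancer 4 rose and 3 fell. SOX9, a factor of duct and progenitor cells, was at 7.62 and 7.78 FPKM in NC-1 and 15.3 and 13.04 FPKM with miR-4711-5p (log2 fold change 0.80 ± 0.08, adjusted p = 0.000327), and SOX2 at 7.24 and 7.80 FPKM in NC-1 and 10.9 and 11.3 FPKM with miR-4711-5p (log2 fold change 0.51 ± 0.06, adjusted p = 0.000835). CD44, a receptor of hyaluronan, was at 163 and 179 FPKM in NC-1 and 143 and 139 FPKM with miR-4711-5p (log2 fold change -0.27 ± 0.05, adjusted p = 0.00671), and CD24, whose reads can be shared with pseudogenes, at 142 and 156 FPKM in NC-1 and 119.7 and 116 FPKM with miR-4711-5p (log2 fold change -0.34 ± 0.06, adjusted p = 0.00296). ABCG2, a drug exporter, was at 3.18 and 3.51 FPKM in NC-1 and 1.32 and 1.34 FPKM with miR-4711-5p (log2 fold change -0.90 ± 0.10, adjusted p = 0.00067), and EPCAM at 92.1 and 91.6 FPKM in NC-1 and 107 and 109.7 FPKM with miR-4711-5p (log2 fold change 0.24 ± 0.04, adjusted p = 0.00424). ALDH1A1 stayed below the filter, between 0.759 and 1.19 FPKM over the 6 libraries, whereas the related ALDH1A3 was at 318 and 325 FPKM in NC-1 and 344 and 354 FPKM with miR-4711-5p (log2 fold change 0.12 ± 0.04, adjusted p = 0.0468). Of 14 genes of the KLF and SP family 6 fell and 2 rose (1 higher and 6 lower without NC-1 1 or miR-4711-5p 1, 1 higher and 5 lower without miR-4711-5p 2). KLF5, a transcription factor of proliferating epithelium, was at 115 and 120.3 FPKM in NC-1 and 66.8 and 59.2 FPKM with miR-4711-5p (log2 fold change -0.89 ± 0.07, adjusted p = 0.000116), and KLF13 (-0.75), KLF7 (-0.54) and KLF3 (-0.50) fell beside it.

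Several genes of growth factor ligands and receptors fell. Of 7 ligands of the EGF family 5 fell and none rose (0 higher and 3 lower without NC-1 1 or miR-4711-5p 2). TGFA, which encodes transforming growth factor alpha, was at 33.98 and 31.3 FPKM in NC-1 and 14.1 and 14.4 FPKM with miR-4711-5p (log2 fold change -1.14 ± 0.06, adjusted p = 1.4e-05). AREG (-0.78), HBEGF (-0.53), NRG1 (-0.27) and EREG (-0.22) also fell, and for AREG, HBEGF and EREG NC-1 was above Parent, with log2 fold changes of 0.48, 0.52 and 0.96. Of 21 receptor tyrosine kinases 7 fell and 3 rose (1 higher and 6 lower without NC-1 1 or miR-4711-5p 1, 2 higher and 4 lower without miR-4711-5p 2). MET, the receptor of hepatocyte growth factor, was at 115 and 111 FPKM in NC-1 and 55.1 and 55.04 FPKM with miR-4711-5p (log2 fold change -1.02 ± 0.04, adjusted p = 8.35e-06), FGFR3 at 20.1 and 20.6 FPKM in NC-1 and 10.4 and 11.2 FPKM with miR-4711-5p (log2 fold change -0.85 ± 0.07, adjusted p = 0.000125) and DDR1, a collagen receptor, at 121 and 124 FPKM in NC-1 and 79.5 and 80.8 FPKM with miR-4711-5p (log2 fold change -0.61 ± 0.04, adjusted p = 6.15e-05). Of 25 ERK feedback and immediate early genes 11 rose and 4 fell (7 higher and 4 lower without NC-1 2, 6 higher and 3 lower without miR-4711-5p 1, 5 higher and 3 lower without miR-4711-5p 2). ATF3, a stress-induced factor, was at 2.49 and 2.16 FPKM in NC-1 and 5.79 and 5.56 FPKM with miR-4711-5p (log2 fold change 1.01 ± 0.10, adjusted p = 0.000286), and JUN at 31.3 and 30.6 FPKM in NC-1 and 59.4 and 54.04 FPKM with miR-4711-5p (log2 fold change 0.85 ± 0.08, adjusted p = 0.000225), with DUSP1 (0.65) rising and ETV5 (-0.71) falling.

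The YAP and TGF-beta lists each held members that moved apart. Of 17 YAP and TEAD genes 8 rose and 5 fell (7 higher and 3 lower without NC-1 2 or miR-4711-5p 2, 6 higher and 3 lower without miR-4711-5p 1), with a median of 0.10. NC-1 had raised 9 of the 17 against Parent and lowered 3, with a median of 0.29. CYR61, a matricellular target gene, was at 75.4 and 70.3 FPKM in NC-1 and 208 and 195 FPKM with miR-4711-5p (log2 fold change 1.45 ± 0.07, adjusted p = 1.7e-05), and ANKRD1, another target, at 18.2 and 17.2 FPKM in NC-1 and 39.8 and 41.2 FPKM with miR-4711-5p (log2 fold change 1.15 ± 0.05, adjusted p = 1.15e-05). YAP1 itself, named after its value was seen, was at 61.4 and 61.03 FPKM in NC-1 and 42.3 and 39.4 FPKM with miR-4711-5p (log2 fold change -0.57 ± 0.05, adjusted p = 0.00027). Of 18 TGF-beta ligands, receptors and SMADs 10 fell and 5 rose (3 higher and 7 lower without NC-1 1 or miR-4711-5p 2, 3 higher and 6 lower without miR-4711-5p 1), with a median of -0.30. ID1, an inhibitor of basic helix-loop-helix factors, was at 178 and 197 FPKM in NC-1 and 73.4 and 83.5 FPKM with miR-4711-5p (log2 fold change -1.25 ± 0.08, adjusted p = 3.81e-05), whereas its relative ID3 was at 4.09 and 3.85 FPKM in NC-1 and 6.74 and 6.29 FPKM with miR-4711-5p (log2 fold change 0.59 ± 0.08, adjusted p = 0.001). TGFBR2, the type II receptor, was at 78.5 and 75.5 FPKM in NC-1 and 51.2 and 50.01 FPKM with miR-4711-5p (log2 fold change -0.60 ± 0.04, adjusted p = 8.5e-05), and the repressor SKIL (-0.57) fell, both after NC-1 had raised them against Parent (log2 fold changes 0.80 and 0.53).

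Integrin and laminin genes fell. Of 17 genes of integrins and laminin-332, 10 fell and 1 rose, with a median log2 fold change of -0.39, after NC-1 had raised 7 of the 17 against Parent and lowered 2. ITGA5, the fibronectin receptor chain, was at 81.8 and 85.2 FPKM in NC-1 and 23.9 and 23.5 FPKM with miR-4711-5p (log2 fold change -1.77 ± 0.05, adjusted p = 3.42e-06), and NC-1 had raised it from 45.4 and 42.5 FPKM in Parent. LAMA3, a chain of laminin-332, was at 90.02 and 90.3 FPKM in NC-1 and 48.6 and 49.5 FPKM with miR-4711-5p (log2 fold change -0.87 ± 0.04, adjusted p = 1.2e-05). ITGB6, an activator of latent TGF-beta, was at 25.7 and 28.7 FPKM in NC-1 and 11.2 and 11.2 FPKM with miR-4711-5p (log2 fold change -1.20 ± 0.06, adjusted p = 1.76e-05), and ITGB1, the most abundant chain, at 484 and 478 FPKM in NC-1 and 302 and 302 FPKM with miR-4711-5p (log2 fold change -0.67 ± 0.04, adjusted p = 4.42e-05). Of 24 matrix proteases and inhibitors 13 fell and 7 rose. NC-1 had raised 11 of the 24 against Parent and lowered 1. In both miR-4711-5p libraries 8 of the 24 lay below all 4 controls, against 26.3% of all genes tested. MMP28 was at 66.7 and 62.5 FPKM in NC-1 and 14.1 and 15.8 FPKM with miR-4711-5p (log2 fold change -2.04 ± 0.07, adjusted p = 4.72e-06), and the inhibitors TIMP3 (-1.23) and TIMP2 (-1.09) fell. MMP7, a protease of duct epithelium, was at 2.53 and 3.21 FPKM in NC-1 and 8.90 and 7.17 FPKM with miR-4711-5p (log2 fold change 1.22 ± 0.19, adjusted p = 0.00247). Of 27 genes of the actin cytoskeleton 9 fell and 4 rose (2 higher and 9 lower without NC-1 2, 1 higher and 6 lower without miR-4711-5p 1, 2 higher and 5 lower without miR-4711-5p 2), with ACTN4 (-0.51) and CDC42 (-0.44) among the decreases and RND3 (0.34), an antagonist of RhoA, among the increases.

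**Figure D5:**
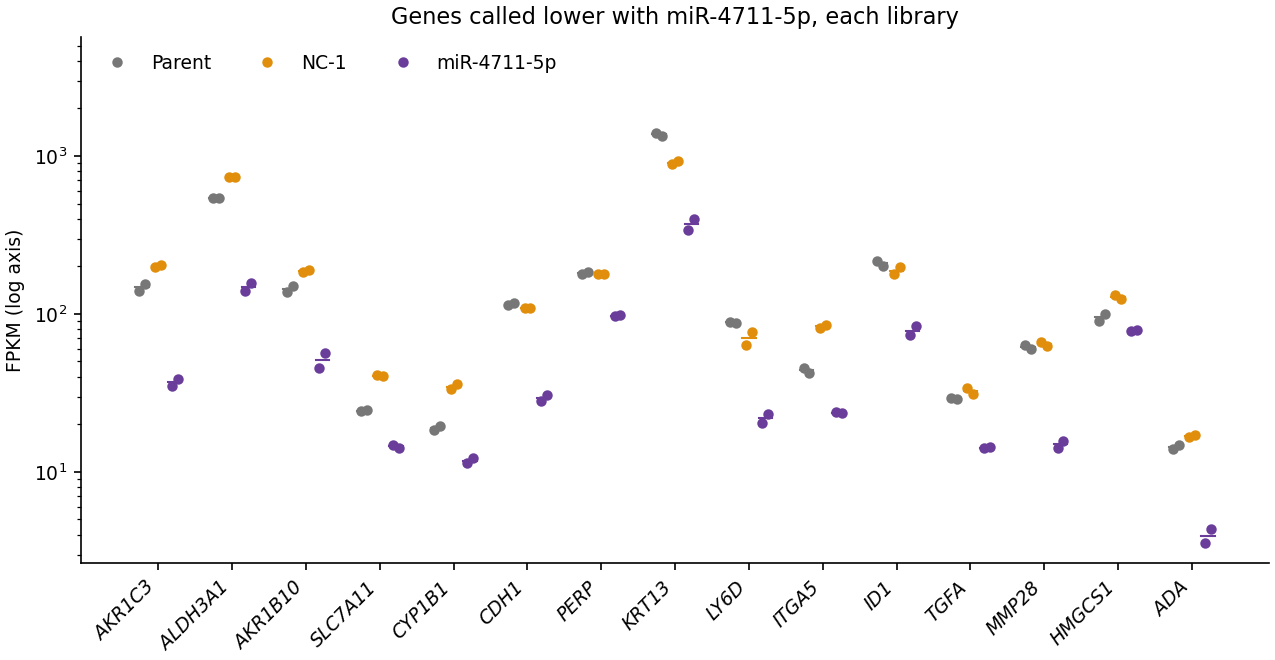
FPKM of 15 genes that fell, on a log axis, with 1 point per library and a bar at the mean of the 2 libraries of Parent, NC-1 and miR-4711-5p. For each gene both miR-4711-5p points lie below the 4 control points. For several genes, among them CYP1B1, AKR1C3, ALDH3A1 and ITGA5, the NC-1 points lie above Parent.

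Most genes of antioxidant and detoxifying enzymes fell. Of 24 genes of the NRF2 programme and the AKR1C enzymes, 17 fell and 3 rose (1 higher and 17 lower without NC-1 1 or miR-4711-5p 2, 1 higher and 15 lower without miR-4711-5p 1), with a median log2 fold change of -0.37, although NC-1 had raised 11 of the 24 against Parent. AKR1C3, an aldo-keto reductase of steroid and prostaglandin metabolism, was at 197 and 205 FPKM in NC-1 and 34.99 and 38.7 FPKM with miR-4711-5p (log2 fold change -2.42 ± 0.07, adjusted p = 3.18e-06), from 139.9 and 155 FPKM in Parent. AKR1B10 was at 185 and 191 FPKM in NC-1 and 45.2 and 56.9 FPKM with miR-4711-5p (log2 fold change -1.87 ± 0.10, adjusted p = 2e-05), AKR1C2 at 49.4 and 46.5 FPKM in NC-1 and 15.4 and 16.02 FPKM with miR-4711-5p (log2 fold change -1.55 ± 0.07, adjusted p = 8.56e-06) and AKR1C1 at 327 and 348 FPKM in NC-1 and 113 and 130.2 FPKM with miR-4711-5p (log2 fold change -1.47 ± 0.07, adjusted p = 1.69e-05). The AKR1C genes, neighbours on chromosome 10, are paralogues that can share reads, so that their separate values are uncertain. SLC7A11, the cystine importer that feeds glutathione synthesis, was at 41.1 and 40.3 FPKM in NC-1 and 14.9 and 14.1 FPKM with miR-4711-5p (log2 fold change -1.43 ± 0.05, adjusted p = 5.74e-06). The ferritin chains, which store iron, were the highest of the list, with FTL at 3732 and 3991 FPKM in NC-1 and 2560 and 2685 FPKM with miR-4711-5p (log2 fold change -0.56 ± 0.05, adjusted p = 0.00027) and FTH1 at 1933 and 1987 FPKM in NC-1 and 1669 and 1759 FPKM with miR-4711-5p (log2 fold change -0.19 ± 0.04, adjusted p = 0.00993). HMOX1, which encodes haem oxygenase 1 and was named after its value was seen, went against the group at 3.81 and 4.55 FPKM in NC-1 and 8.01 and 8.51 FPKM with miR-4711-5p (log2 fold change 0.84 ± 0.10, adjusted p = 0.000722).

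The related targets of the aryl hydrocarbon receptor held some of the same genes. Of 9 genes 5 fell and 1 rose (0 higher and 4 lower without miR-4711-5p 1), after NC-1 had raised 6 of the 9 against Parent and lowered none. ALDH3A1, an aldehyde dehydrogenase of the cornea and of tumours, was at 739 and 738 FPKM in NC-1 and 139.8 and 158 FPKM with miR-4711-5p (log2 fold change -2.31 ± 0.06, adjusted p = 3.18e-06), from 541 and 540.3 FPKM in Parent. CYP1B1, a monooxygenase of xenobiotics, was at 33.3 and 35.9 FPKM in NC-1 and 11.3 and 12.2 FPKM with miR-4711-5p (log2 fold change -1.48 ± 0.06, adjusted p = 9.66e-06), NQO1, a quinone reductase also held by the NRF2 list, at 152 and 158 FPKM in NC-1 and 103 and 107 FPKM with miR-4711-5p (log2 fold change -0.56 ± 0.05, adjusted p = 0.000176), and UGT1A6, a glucuronosyltransferase that shares exons with its neighbours, at 119 and 116 FPKM in NC-1 and 89.02 and 93.7 FPKM with miR-4711-5p (log2 fold change -0.36 ± 0.05, adjusted p = 0.00116). CYP1A1 rose at low level, from 1.33 and 2.16 FPKM to 3.76 and 3.60 FPKM (log2 fold change 0.79, adjusted p = 0.00678). AHR, the receptor itself, fell by little (log2 fold change -0.17, adjusted p = 0.0254).

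Lipid synthesis genes fell by modest amounts in the same direction. Of 26 genes of cholesterol and fatty acid synthesis 17 fell and none rose, with a median log2 fold change of -0.28. HMGCS1, an enzyme of the mevalonate pathway, was at 132 and 124 FPKM in NC-1 and 77.5 and 78.6 FPKM with miR-4711-5p (log2 fold change -0.70 ± 0.06, adjusted p = 0.000133), SCD, the stearoyl-CoA desaturase, at 390 and 379.5 FPKM in NC-1 and 233 and 239.8 FPKM with miR-4711-5p (log2 fold change -0.70 ± 0.04, adjusted p = 3e-05), ACLY, the source of cytosolic acetyl-CoA, at 85.3 and 77.1 FPKM in NC-1 and 52.1 and 50.5 FPKM with miR-4711-5p (log2 fold change -0.65 ± 0.06, adjusted p = 0.000205) and FDPS at 138 and 142 FPKM in NC-1 and 94.1 and 99.2 FPKM with miR-4711-5p (log2 fold change -0.53 ± 0.05, adjusted p = 0.000188). Both transcription factors of the pathway, SREBF2 (-0.53) and SREBF1 (-0.50), fell and were named after their values were seen. Glycolysis and hypoxia genes were split, with 8 of 26 higher and 7 lower (6 higher and 3 lower without miR-4711-5p 1). SLC2A1, the glucose transporter GLUT1, was at 154 and 151 FPKM in NC-1 and 80.1 and 79.9 FPKM with miR-4711-5p (log2 fold change -0.92 ± 0.04, adjusted p = 8.79e-06), and NDRG1, a stress-responsive gene, at 44.7 and 44.6 FPKM in NC-1 and 26.2 and 24.4 FPKM with miR-4711-5p (log2 fold change -0.80 ± 0.05, adjusted p = 4.51e-05). ADM, which encodes adrenomedullin, was at 10.1 and 10.8 FPKM in NC-1 and 25.2 and 24.5 FPKM with miR-4711-5p (log2 fold change 1.17 ± 0.07, adjusted p = 2.39e-05), and HK2, a hexokinase, at 15.4 and 14.1 FPKM in NC-1 and 23.3 and 22.1 FPKM with miR-4711-5p (log2 fold change 0.59 ± 0.06, adjusted p = 0.000351).

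Of 41 subunits of the respiratory chain 18 fell and 1 rose (0 higher and 15 lower without NC-1 2, 0 higher and 10 lower without miR-4711-5p 1, 0 higher and 12 lower without miR-4711-5p 2), with a median of -0.12, while NC-1 against Parent had lowered 21 and raised none. NDUFB5 of complex I (-0.54), UQCRC2 of complex III (-0.49), ATP5A1 of the ATP synthase (-0.44) and SDHD of complex II (-0.41) had the largest decreases. Of 60 cytosolic ribosomal proteins 5 rose and 13 fell (3 higher and 6 lower without miR-4711-5p 1, 2 higher and 10 lower without miR-4711-5p 2), a share of 30% called against 39.6% of all genes. In both miR-4711-5p libraries 27 of the 60 lay below all 4 controls, against 26.3% of all genes tested. NC-1 against Parent had already lowered 20 of the 60 and raised none. RPLP0, of the ribosomal stalk, was at 2191 and 2221 FPKM in NC-1 and 1608 and 1668 FPKM with miR-4711-5p (log2 fold change -0.43 ± 0.04, adjusted p = 0.000183). Ribosomal protein reads can be shared with many pseudogenes. RPS4X, with 1492 and 1523 FPKM in Parent, 974 and 1066 FPKM in NC-1 and 1302 and 1366 FPKM with miR-4711-5p, rose against NC-1 but stayed below Parent.

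Stress genes of the endoplasmic reticulum and cytosol were divided. Of 27 genes of the unfolded protein and integrated stress response 7 rose and 8 fell (4 higher and 7 lower without miR-4711-5p 1). TRIB3, a pseudokinase induced by ATF4, was at 18.3 and 17.6 FPKM in NC-1 and 8.82 and 8.82 FPKM with miR-4711-5p (log2 fold change -0.95 ± 0.06, adjusted p = 2.83e-05), SEL1L, of ER-associated degradation, at 18.8 and 19.1 FPKM in NC-1 and 10.9 and 10.6 FPKM with miR-4711-5p (log2 fold change -0.76 ± 0.06, adjusted p = 0.000119) and DDIT4, an inhibitor of mTORC1, at 108 and 101 FPKM in NC-1 and 65.7 and 68.1 FPKM with miR-4711-5p (log2 fold change -0.64 ± 0.05, adjusted p = 0.000132). HSPA5, which encodes the ER chaperone BiP, was at 312 and 293 FPKM in NC-1 and 338 and 346 FPKM with miR-4711-5p (log2 fold change 0.18 ± 0.04, adjusted p = 0.0163). Of 22 cytosolic chaperones 5 fell and 2 rose, a share of 31.8% that was under the background of 39.6%. DNAJB4 was at 15.4 and 15.9 FPKM in NC-1 and 7.41 and 7.51 FPKM with miR-4711-5p (log2 fold change -0.98 ± 0.06, adjusted p = 3.65e-05) and BAG3, a co-chaperone, at 93.5 and 91.2 FPKM in NC-1 and 60.96 and 59.6 FPKM with miR-4711-5p (log2 fold change -0.61 ± 0.04, adjusted p = 6.15e-05). HSPE1, the mitochondrial co-chaperonin, was at 125 and 119 FPKM in NC-1 and 202 and 219 FPKM with miR-4711-5p (log2 fold change 0.78 ± 0.06, adjusted p = 7.03e-05), and the latter overlapped the Parent values of 210 and 222 FPKM. Of 20 aminoacyl-tRNA synthetases 5 rose and 4 fell (6 higher and 1 lower without NC-1 1, 3 higher and 3 lower without NC-1 2, 2 higher and 0 lower without miR-4711-5p 1, 1 higher and 1 lower without miR-4711-5p 2), within a range of -0.32 to 0.31.

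Of 25 lysosomal genes 10 fell and 1 rose (2 higher and 9 lower without NC-1 2), with a median of -0.11. CTSA, which protects lysosomal sialidase and galactosidase, was at 107 and 103 FPKM in NC-1 and 36.8 and 36.96 FPKM with miR-4711-5p (log2 fold change -1.49 ± 0.05, adjusted p = 3.75e-06), and CTSD, an aspartic protease, at 538 and 556 FPKM in NC-1 and 301 and 309.7 FPKM with miR-4711-5p (log2 fold change -0.84 ± 0.05, adjusted p = 3.29e-05). NEU1, the sialidase that CTSA protects and the only member to rise, was named after its value was seen and was at 22.1 and 22.4 FPKM in NC-1 and 28.4 and 31.7 FPKM with miR-4711-5p (log2 fold change 0.42 ± 0.06, adjusted p = 0.00193). Of 22 autophagy genes 6 fell and 2 rose (0 higher and 3 lower without NC-1 1 or miR-4711-5p 1, 1 higher and 5 lower without NC-1 2, 1 higher and 4 lower without miR-4711-5p 2), all by less than 0.4 on the log2 scale, with ATG12 (-0.38), BECN1 (-0.31) and ATG5 (-0.30) the largest decreases. This share of 36.4% was under the background of 39.6%. Synthesis of chondroitin and dermatan sulfate had 7 of 15 genes higher and 3 lower. CHST14, the dermatan 4-O-sulfotransferase, was at 13.2 and 13.04 FPKM in NC-1 and 3.22 and 3.37 FPKM with miR-4711-5p (log2 fold change -1.72 ± 0.06, adjusted p = 5.15e-06), while B3GALT6 was at 12.6 and 11.02 FPKM in NC-1 and 21.2 and 20.7 FPKM with miR-4711-5p (log2 fold change 0.78 ± 0.07, adjusted p = 0.000173) and B3GAT3 at 15.5 and 20.1 FPKM in NC-1 and 29.2 and 26.3 FPKM with miR-4711-5p (log2 fold change 0.62 ± 0.12, adjusted p = 0.00498), both enzymes of the linker that carries the chain. Of 18 amino acid transporters 7 fell and 5 rose (4 higher and 4 lower without NC-1 2 or miR-4711-5p 1), and besides SLC7A11 the arginine and lysine transporter SLC7A1 was at 22.1 and 20.5 FPKM in NC-1 and 10.9 and 11.2 FPKM with miR-4711-5p (log2 fold change -0.89 ± 0.06, adjusted p = 4.7e-05). Of 16 chloride channels and anoctamins 6 fell and 2 rose (1 higher and 5 lower without NC-1 2, 1 higher and 4 lower without miR-4711-5p 1, 1 higher and 6 lower without miR-4711-5p 2). ANO1, a calcium-activated chloride channel, was at 82.5 and 84.4 FPKM in NC-1 and 45.7 and 45.99 FPKM with miR-4711-5p (log2 fold change -0.85 ± 0.04, adjusted p = 1.39e-05), and LRRC8D, a subunit of the volume-regulated channel, at 20.2 and 20.9 FPKM in NC-1 and 10.2 and 10.4 FPKM with miR-4711-5p (log2 fold change -0.93 ± 0.06, adjusted p = 3.65e-05). CLIC1, the highest member, was at 404 and 404 FPKM in NC-1 and 424 and 436 FPKM with miR-4711-5p (log2 fold change 0.09 ± 0.04, adjusted p = 0.133).

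Of 19 genes of the machinery that processes and uses miRNAs, 7 were lower and 2 higher (2 higher and 4 lower without NC-1 1, 1 higher and 5 lower without miR-4711-5p 1, 1 higher and 4 lower without miR-4711-5p 2). The share called, 47.4%, was near the background of 39.6%, and the median log2 fold change was -0.13. NC-1 had raised 6 of the 19 against Parent and lowered 1. DICER1, the nuclease that releases miRNA duplexes, was at 20.4 and 18.8 FPKM in NC-1 and 12.4 and 12.1 FPKM with miR-4711-5p (log2 fold change -0.63 ± 0.06, adjusted p = 0.000217), and AGO4, one of the Argonautes, at 2.75 and 2.82 FPKM in NC-1 and 1.36 and 1.39 FPKM with miR-4711-5p (log2 fold change -0.67 ± 0.09, adjusted p = 0.00144). TNRC6A, the scaffold of silencing complexes, was at 23.8 and 23.4 FPKM in NC-1 and 18.2 and 18.6 FPKM with miR-4711-5p (log2 fold change -0.34 ± 0.05, adjusted p = 0.00199), from 12.7 and 13.3 FPKM in Parent, so that the miR-4711-5p level lay between the controls. With miR-4711-5p the decapping enzyme DCP2 overlapped Parent, with 3.24 and 2.99 FPKM in Parent, 5.80 and 5.35 FPKM in NC-1 and 3.39 and 2.87 FPKM with miR-4711-5p. Metallothioneins and zinc transporters had 4 of 12 members higher and none lower, a share of 33.3% that was under the background of 39.6%. SLC39A6 had the largest increase, at 16.4 and 14.9 FPKM in NC-1 and 29.96 and 31.4 FPKM with miR-4711-5p (log2 fold change 0.93 ± 0.06, adjusted p = 6.21e-05). Among 15 small nucleolar RNA host genes and long non-coding RNAs 7 rose and 2 fell. H19, an imprinted long non-coding RNA, was at 61.5 and 66.3 FPKM in NC-1 and 24.1 and 31.3 FPKM with miR-4711-5p (log2 fold change -1.19 ± 0.12, adjusted p = 0.000291), while the host gene SNHG12 (0.69) and NEAT1, the scaffold of paraspeckles, rose, NEAT1 being at 59.8 and 55.3 FPKM in NC-1 and 86.9 and 83.8 FPKM with miR-4711-5p (log2 fold change 0.56 ± 0.05, adjusted p = 0.000236).

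A few genes outside the lists were named after their values were seen, for the size of their change at high level. TAGLN2, an actin-binding protein, was at 547 and 541 FPKM in NC-1 and 190.4 and 209 FPKM with miR-4711-5p (log2 fold change -1.44 ± 0.05, adjusted p = 5.74e-06), and CALM3, 1 of the calmodulin genes, at 176 and 173 FPKM in NC-1 and 65.5 and 64.1 FPKM with miR-4711-5p (log2 fold change -1.42 ± 0.04, adjusted p = 3.18e-06). HMGB1, a chromatin protein with many pseudogenes that can share its reads, was at 198 and 188 FPKM in NC-1 and 77.8 and 76.8 FPKM with miR-4711-5p (log2 fold change -1.31 ± 0.04, adjusted p = 4.78e-06), and KPNB1, the nuclear import receptor, at 125 and 117 FPKM in NC-1 and 49.3 and 50.5 FPKM with miR-4711-5p (log2 fold change -1.26 ± 0.05, adjusted p = 6.58e-06). S100P, a calcium-binding protein of pancreatic tumours, was at 281 and 274 FPKM in NC-1 and 109 and 112 FPKM with miR-4711-5p (log2 fold change -1.32 ± 0.04, adjusted p = 3.97e-06). PLSCR1, an interferon-induced scramblase, was at 51.1 and 54.6 FPKM in NC-1 and 128 and 122 FPKM with miR-4711-5p (log2 fold change 1.23 ± 0.05, adjusted p = 9.3e-06), and SAT1, which breaks down polyamines, at 82.7 and 85.6 FPKM in NC-1 and 167 and 169 FPKM with miR-4711-5p (log2 fold change 0.99 ± 0.05, adjusted p = 1.54e-05). GADD45B, a gene of growth arrest and NF-kappaB signalling, was at 7.92 and 5.80 FPKM in NC-1 and 23.1 and 19.3 FPKM with miR-4711-5p (log2 fold change 1.51 ± 0.13, adjusted p = 0.000198).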

How the data were processed

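RNA of BxPC-3 cells was sequenced in 6 libraries, 2 each of Parent, NC-1 and miR-4711-5p. The values are FPKM as the authors deposited them, made from stranded mRNA libraries read single-end, aligned to hg19 and quantified with the Cufflinks suite. The submitters' processing notes name TopHat2 2.1.1, Bowtie2 2.3.5.1, SAMtools 1.2, Cufflinks 2.2.1 and Cuffdiff, while the methods give other versions, so the versions are uncertain. FPKM hold no read counts, and depth is known only relative to NC-1 1.

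Groups were taken from the labels. Genes whose mean over the libraries reached 1 FPKM were fitted on log2(FPKM + 1) with limma 3.58.1 in R 4.3.3, with the 3 groups in 1 model (3 residual degrees of freedom), a mean-variance trend and Benjamini-Hochberg adjustment at 0.05. Every adjusted p in the text comes from this fit. A log2 fold change on this scale understates changes of low genes. Parent shares NC-1 with the comparison. Replicate numbers were not used to pair libraries. The code was tested on simulated data.

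Genes and 58 gene lists were chosen with earlier results of these data known. Named were the 15 largest increases and decreases called with at least 10 FPKM in the higher group and no overlap with the 4 control libraries, the 4 called members with the largest change and the 2 highest members of each list, whole short lists, and genes of earlier interest. Alternatives were other pseudocounts and filters, rescaling, the 4 transfected libraries alone, no trend, a minimum fold, a replicate block and leaving out each transfected library. Promoters and the miRNA came from RefSeq and 3′ UTRs from GENCODE; 8975 of the 12040 genes matched a promoter and 10578 a 3′ UTR. Python 3.11.15 was used for these. A few list members are counted in their lists but not reported here by name.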

Additional observations from a re-analysis of the deposited data

How the results depend on the processing

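Of the called genes that each of the 13 alternatives tested (4004 of the 4763 with a mean of at least 5 FPKM, all 4763 otherwise), none changed sign. The total of 4763 lay between 4175 and 4820 under other pseudocounts, filters, scaling, no trend and the 4 transfected libraries alone. With a minimum of 1.5-fold it was 976, with 391 higher and 585 lower, and 298 for NC-1 against Parent, a stricter rule by construction. Without 1 library at a time, the total was 2815 to 3645, with 1198 to 1659 higher and 1617 to 1986 lower, and NC-1 against Parent, 3279 in all, gave 1591 to 2296. The total was lowest without miR-4711-5p 1, at 2815, and 2991 without miR-4711-5p 2, and NC-1 against Parent fell to 1591 without NC-1 1 and 1944 without NC-1 2, each fit having fewer libraries. With no filter on low values, NC-1 against Parent gave 2165, and the cause was not tested. With the replicate block the total was 4564, of which 4438 were called without it, and 2 of the 228 named genes called lost the call. Same-numbered libraries of different groups did not deviate together (correlations 0.061, 0.003 and -0.009), so the numbers only name libraries. Of the named genes called, 150 kept the call under every alternative, 74 lost it with the minimum fold, 12 with no filter and 18 or 17 without miR-4711-5p 1 or 2. The balance of higher and lower calls turned in 8 of the 58 lists: proteasome, complement, mesenchymal genes and amino acid transporters with the minimum fold, cytokines and the BCL2 family with a mean of at least 5 FPKM, synthetases under 3 alternatives and glycolysis under 2. Depth is known only as a ratio between libraries, so its limit on single genes could not be given.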
